A study of Bos taurus with 8 samples.

Results

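The genes described here are nuclear genes of the 5 complexes of oxidative phosphorylation. Membership was set by name, as every gene of the deposited gene table whose symbol begins with the family prefix of a subunit of complex I (NDUFA, NDUFB, NDUFC, NDUFS, NDUFV), complex II (SDHA to SDHD), complex III (UQCR), complex IV (COX4 to COX8) or complex V (ATP5), without the assembly factors named NDUFAF or SDHAF. This gave 84 of 21880 genes, of which 37 belong to complex I, 4 to complex II, 8 to complex III, 17 to complex IV and 18 to complex V. Subunits under other names were not counted. Counts and shares of a complex therefore cover its genes of these prefixes only, among them the inhibitor ATP5IF1. NDUFA4 and NDUFA4L2 were counted with complex IV, since the NDUFA4 protein is a subunit of that complex in spite of its name. All 84 genes were detected, and together they held 17252836 of 764765867 unique molecular identifiers (UMIs, each standing for 1 captured transcript).

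Oxidative phosphorylation makes most of the ATP of a respiring cell. Complexes I and II pass electrons from NADH and succinate to ubiquinone, complex III passes them on to cytochrome c, complex IV gives them to oxygen, and complex V, the ATP synthase, uses the proton gradient that complexes I, III and IV build. A small set of subunits is encoded in the mitochondrial genome. All others, like every gene counted here, are made from nuclear transcripts and imported. Several subunits of complex IV have a second gene for particular tissues: COX6A2, COX7A1 and COX8B are the heart and skeletal muscle forms of COX6A1, COX7A2 and COX8A, COX4I2 is the form of COX4I1 known from lung and vascular smooth muscle, and COX6B2 is the form of COX6B1 known from testis.

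Single cells came from the semitendinosus muscle of 10 Belgian Blue cattle, 5 calves and 5 adults, and were pooled across donors at each of 5 timepoints. Timepoint 1 was cells taken straight from collagenase-digested muscle (muscle), Timepoint 2 was the adherent cells 72 h after plating on fibronectin without serum (passage 0, P0), and Timepoints 3, 4 and 5 were passages 2, 5 and 8 (P2, P5 and P8). From P2 on, donors 1, 2 and 9 were grown as unsorted cultures on fibronectin, donors 5, 6 and 10 as sorted satellite cell (SC) cultures on laminin, and donors 4, 7 and 8 as sorted fibro-adipogenic progenitor (FAP) cultures on collagen I, while donor 3 gave muscle cells alone. Donors 6, 8 and 10 were male and the others female, and donors 2, 4, 5, 7 and 10 were the calves. The sort, the coating and the donors, with their sex and age, therefore changed together and cannot be told apart. The same holds for timepoint and library, since the counts used for each timepoint came from 1 library.

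The unit of replication was the donor: raw UMIs were summed over the cells of 1 type, timepoint and donor, for every such set of at least 10 cells, and levels are given as CPM, the UMIs of a gene after the sum was scaled to 1000000. The 5 libraries held between 2772 and 10405 cells kept, with a median of 4184 UMIs per cell in muscle and of 18340 to 27240 UMIs per cell in culture, and 129 of 36000 barcodes occurred in more than 1 library. The cell types are the labels that the study deposited, which were assigned by clustering the same expression values. Their defining markers had their highest median in the labelled type for 22 of 25 markers in muscle and 17 of 19 at P0. The exceptions were ITGA7 and DES, which were higher in smooth muscle and mesenchymal cells (SMMCs) than in SCs, and, in muscle, PTPRC, which was higher in lymphocytes than in monocytes/macrophages. PAX7 had a median of 0 in the SCs of P8.

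The 84 genes took a small share of all UMIs, and the share was higher at P0 than in muscle in each cell type that could be followed. In muscle it was 1.45% to 1.83% of UMIs in FAPs (median 1.71%, n = 10 donors), 1.59% to 2.11% in SCs (median 1.90%), 1.33% to 1.66% in vascular endothelial cells (VECs, median 1.52%) and 1.45% to 1.65% in monocytes/macrophages (median 1.54%). SMMCs had 2.28% to 2.75% (median 2.53%), and no donor's SMMCs fell into the range of these other 4 types. At P0 the medians were 2.51% in FAPs, 2.52% in SCs, 2.31% in VECs, 2.91% in SMMCs and 2.22% in monocytes/macrophages. The share was higher at P0 in 9 of 9 donors for FAPs, SCs and VECs, in 6 of 7 for SMMCs and in 7 of 7 for monocytes/macrophages.

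**Figure D1:**
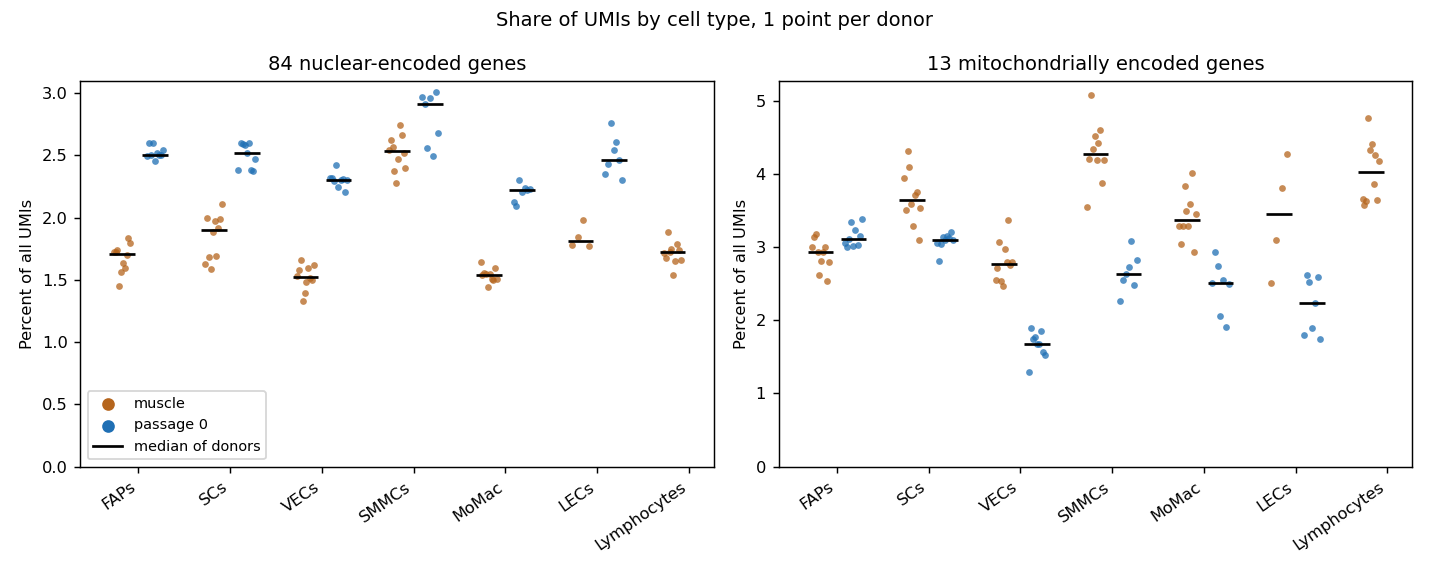
Percent of all UMIs (y axis) in the 84 nuclear-encoded genes (left) and the 13 mitochondrially encoded genes (right) by cell type (x axis; MoMac, monocytes/macrophages; LECs, lymphatic endothelial cells), in muscle (brown) and at passage 0 (blue), with 1 point per donor with at least 10 cells and a bar at the median. On the left FAPs go from a median of 1.71% to 2.51%, and on the right VECs go from 2.77% to 1.68%.

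In FAPs the median share at P0 was 1.46 times that in muscle, in VECs 1.51 times, in monocytes/macrophages 1.44 times, in SCs 1.33 times and in SMMCs 1.15 times. These ratios were 1.14 to 1.49 when the mitochondrially encoded UMIs were taken out of the total, and 1.26 to 1.60 when the UMIs of cytosolic ribosomal proteins were taken out. The 13 genes encoded in the mitochondrial genome went differently. Their summed share had a median of 2.93% in muscle and 3.12% at P0 in FAPs, where it was higher in 8 of 9 donors. In SCs it went from 3.65% to 3.10%, in VECs from 2.77% to 1.68% and in SMMCs from 4.28% to 2.63%, and it was higher in 1 of 9, 0 of 9 and 0 of 7 donors. By the study's methods kept cells lay near the median in mitochondrial percentage, total counts and expressed genes, which limits the range of these shares.

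Gene by gene, P0 was compared with muscle within each type by edgeR's quasi-likelihood test, with p-values adjusted over all genes tested and a gene called at an adjusted p under 0.05. In FAPs 69 of the 80 genes with enough UMIs to test rose and 8 fell. Of all genes tested 40.6% rose and 39.0% fell, and the median log2 fold change was 0.78 for the 80 genes and 0.03 for all. In SCs 48 rose and 10 fell of 77 (36.5% and 37.9% of all genes, median 0.37). In VECs 59 rose and 6 fell of 77 (35.6% and 37.8%, median 0.53). In SMMCs 38 rose and 15 fell of 79 (35.5% and 35.9%, median 0.28), and in monocytes/macrophages 46 rose and 4 fell of 74 (31.9% and 33.7%, median 0.47). The median of all genes tested lay between -0.03 and 0.03 in these comparisons. The size of the median depended on the processing: in FAPs it was 0.51 after thinning to the smallest sum of UMIs, and with no filter on low counts it was 0.69 in SCs and 0.51 in SMMCs. After thinning 29 genes rose and 3 fell in monocytes/macrophages.

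Of the 74 genes tested in all 5 types, 30 rose in every one, against 22.8% of the 2276 genes of the whole table tested in all 5. Over the whole list 62 genes rose in at least 1 type and fell in none (35.7% of the 9724 genes tested in at least 1 type), 11 fell in at least 1 and rose in none (43.4%), and 8 rose in some types and fell in others (9.84%). NDUFB4 was tested and called in none, and COX7B2 and COX8B had too few UMIs to be tested within a type.

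**Figure D2:**
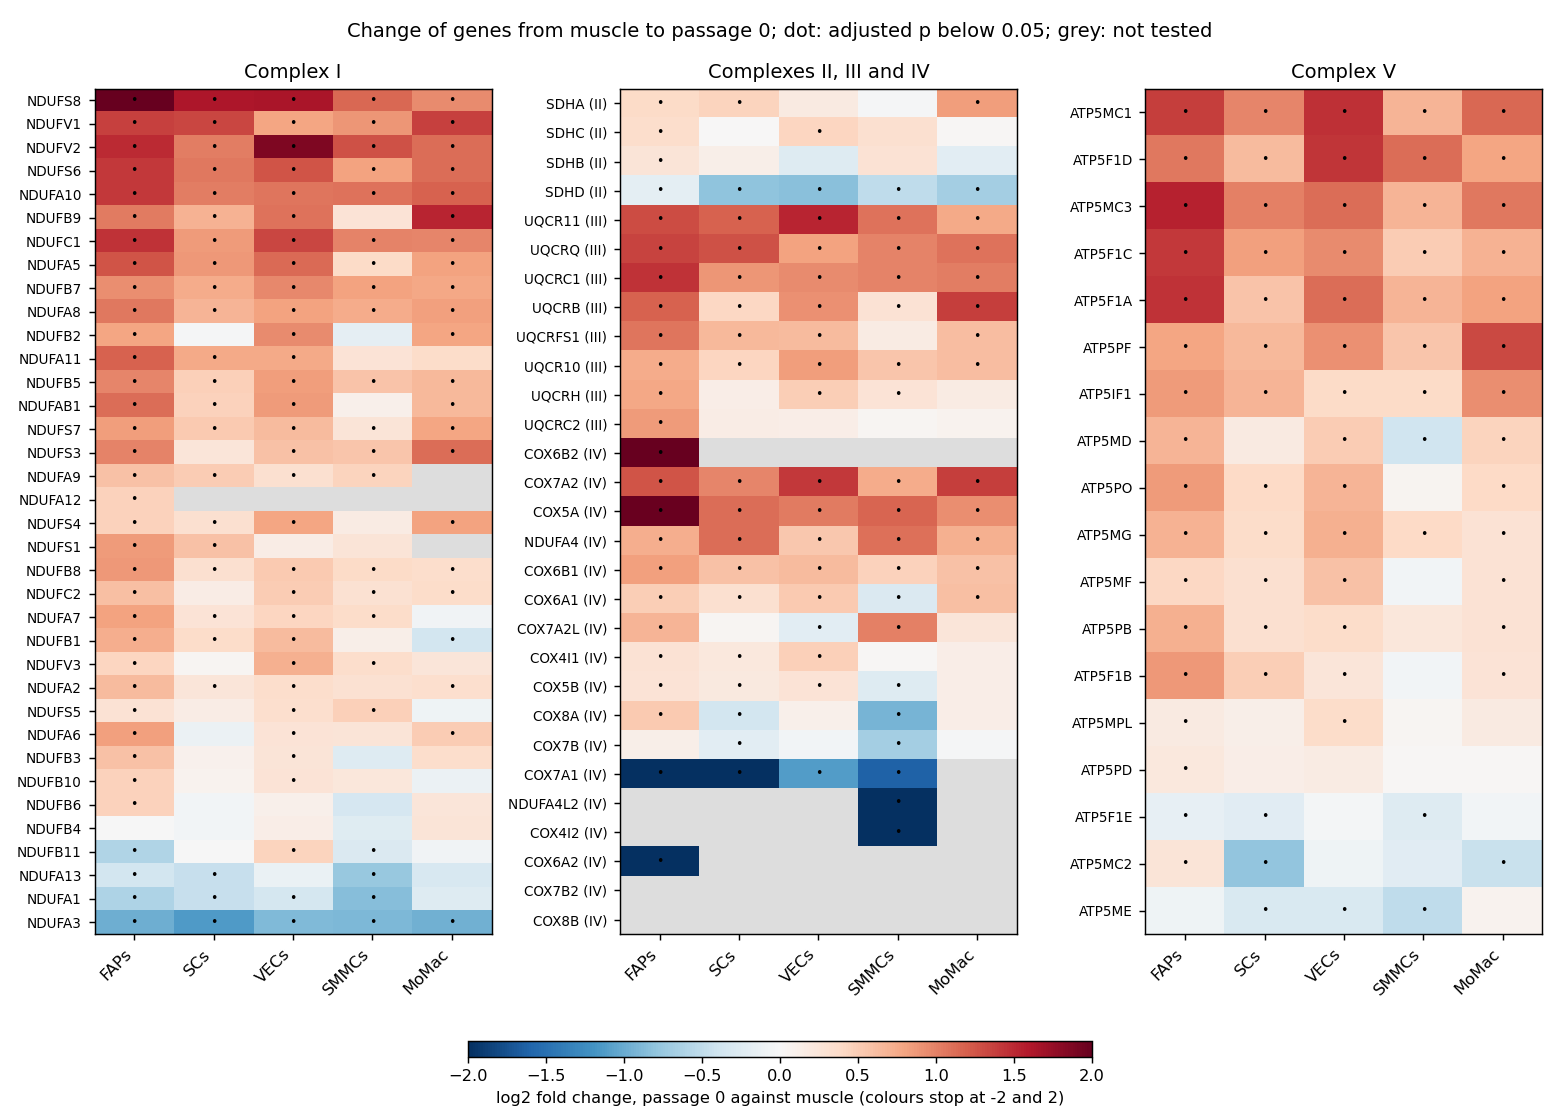
Log2 fold change from muscle to passage 0 (colour, stopping at -2 and 2; red, higher at passage 0; blue, lower) of the genes reported (rows, by complex) in 5 cell types (columns; MoMac, monocytes/macrophages), with a dot for an adjusted p under 0.05 and grey for genes not tested. Most of complexes I, III and V is red, while NDUFA3 and SDHD are blue with a dot in all 5 types.

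In complex I the core subunits had larger changes than the accessory ones by median. The core subunits with nuclear genes carry the flavin, the iron-sulphur clusters and the quinone site, and 7 of 7 rose in FAPs (median log2 fold change 1.24), 6 of 7 in SCs (1.03), VECs (0.78) and SMMCs (0.89) and 6 of the 6 tested in monocytes/macrophages (1.03), and 0 fell in any of these types. Of all genes 31.9% to 40.6% rose in these comparisons. Of the accessory subunits, which surround this core, 25 of 30 rose and 4 fell in FAPs (median 0.68), 16 of 29 and 3 in SCs (0.27), 24 of 29 and 2 in VECs (0.53), 13 of 29 and 4 in SMMCs (0.28) and 15 of 28 and 2 in monocytes/macrophages (0.36). NDUFS8, a core subunit with iron-sulphur clusters, was at 60.6 to 121 CPM in the FAPs of muscle (median 93.2, n = 10) and at 340.2 to 388 CPM at P0 (median 375, n = 9). No donor's values overlapped between the timepoints, and the log2 fold change of NDUFS8 was 2.14 ± 0.11 (SE, edgeR adjusted p = 3.76e-15). It rose by 1.61 ± 0.09 in SCs, 1.63 ± 0.10 in VECs, 1.15 ± 0.16 in SMMCs and 0.94 ± 0.15 in monocytes/macrophages on the same scale.

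NDUFV1 and NDUFV2, of the module that oxidises NADH, rose in all 5 types. NDUFV2 went from a median of 117 CPM (93.5 to 171) to 468 CPM (407 to 522) in VECs, a log2 fold change of 1.87 ± 0.11. It rose by 1.5 in FAPs, 1.03 in SCs, 1.28 in SMMCs and 1.11 in monocytes/macrophages. NDUFV1 had log2 fold changes of 1.37 in FAPs, 1.34 in SCs, 0.78 in VECs, 0.89 in SMMCs and 1.36 in monocytes/macrophages. The large core subunit NDUFS1 rose in FAPs (0.86 ± 0.10) and SCs (0.59 ± 0.15), while its value was 0.15 ± 0.16 in VECs (edgeR adjusted p = 0.4) and 0.25 ± 0.21 in SMMCs (edgeR adjusted p = 0.31). The accessory subunit NDUFB9 went from 53.5 to 161 CPM in monocytes/macrophages (1.52 ± 0.19).

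A few accessory subunits of complex I fell in at least 1 type. NDUFA3, a small membrane subunit, had a median of 220.1 CPM (165 to 312) in muscle and 108 CPM (85.0 to 124) at P0 in FAPs. The medians of NDUFA3 went from 256 to 119 CPM in SCs, from 179 to 99.5 CPM in VECs, from 297 to 130.1 CPM in SMMCs and from 155 to 82.3 CPM in monocytes/macrophages. It fell in all 5 types, with log2 fold changes of -0.98 ± 0.10, -1.13 ± 0.11, -0.88 ± 0.12, -0.89 ± 0.17 and -0.96 ± 0.17 in the order FAPs, SCs, VECs, SMMCs and monocytes/macrophages. It was lower at P0 in each donor with both timepoints, 9 of 9 in the first 3 types and 7 of 7 in the others. NDUFA1, another small membrane subunit, fell by 0.62 ± 0.06 in FAPs, 0.46 ± 0.08 in SCs, 0.35 ± 0.10 in VECs and 0.85 ± 0.12 in SMMCs on the log2 scale, and its value in monocytes/macrophages was -0.26 ± 0.14 (edgeR adjusted p = 0.12). NDUFA13, also known as a regulator of cell death, fell in FAPs (-0.37), SCs (-0.46) and SMMCs (-0.76). NDUFB11 fell in FAPs (-0.59 ± 0.08) and SMMCs (-0.29 ± 0.11) and rose in VECs (0.45 ± 0.08). NDUFB1 fell in monocytes/macrophages (-0.37 ± 0.14) but rose in FAPs (0.73 ± 0.08), SCs (0.37 ± 0.10) and VECs (0.63 ± 0.11).

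Complex II is also the succinate dehydrogenase of the citric acid cycle, and its 4 genes did not move together. SDHA, its flavoprotein, rose in FAPs (0.38 ± 0.06), SCs (0.44 ± 0.09) and monocytes/macrophages (0.84 ± 0.20). SDHB, its iron-sulphur subunit, rose in FAPs by 0.26 ± 0.08, a value that was -0.22 after all sums were thinned to the smallest, and was not called in the other 4 types. SDHD, a membrane anchor, went from a median of 161 CPM (128 to 193) to 102 CPM (79.7 to 111) in SCs, and no donor's values overlapped. SDHD fell in all 5 types, by 0.81 ± 0.10 in SCs, 0.84 ± 0.11 in VECs, 0.68 ± 0.24 in monocytes/macrophages, 0.50 ± 0.15 in SMMCs and 0.20 ± 0.09 in FAPs (edgeR adjusted p = 0.04 for FAPs). The summed share of the 4 genes in FAPs was 0.0428% to 0.0536% of UMIs in muscle and 0.0502% to 0.0537% at P0.

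Complex III had 8 of its 8 listed genes called higher in FAPs, with a median log2 fold change of 1.13, and 6 to 8 called higher and none called lower in each type. Of all genes 31.9% to 40.6% rose and 33.7% to 39.0% fell in these comparisons. The core protein UQCRC1 went from 90.7 CPM (72.6 to 119) to 238 CPM (225 to 246) in FAPs (1.45 ± 0.08), with no overlap between donors. UQCRC1 rose by 0.89 in SCs, 0.94 in VECs, 0.99 in SMMCs and 1.02 in monocytes/macrophages. UQCRFS1, the Rieske iron-sulphur protein, rose by 1.07 in FAPs, 0.64 in SCs, 0.64 in VECs and 0.61 in monocytes/macrophages, and had a value of 0.17 ± 0.12 in SMMCs. Of the small subunits, UQCRQ went from 209 to 490.4 CPM in SCs (1.27 ± 0.09), UQCR11 from 157 to 472 CPM in VECs (1.52 ± 0.10, with 1.18 in SCs) and UQCRB from 120.4 to 273 CPM in monocytes/macrophages (1.38 ± 0.16). UQCRH, the hinge protein, rose in FAPs (0.78), VECs (0.50) and SMMCs (0.27), and was not called in SCs (0.14) or monocytes/macrophages (0.16). The summed share of complex III in FAPs was 0.151% to 0.178% in muscle and 0.313% to 0.330% at P0.

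Complex V is the ATP synthase, and its catalytic head is built of the alpha and beta subunits, ATP5F1A and ATP5F1B. ATP5F1A went from 229 CPM (189 to 286) to 600.3 CPM (579 to 657) in FAPs (1.45 ± 0.07). It rose by 0.57 in SCs, 1.12 in VECs, 0.67 in SMMCs and 0.80 in monocytes/macrophages. ATP5F1B rose in FAPs (0.87 ± 0.07), SCs (0.49), VECs (0.25) and monocytes/macrophages (0.27), while its value in SMMCs was -0.05 ± 0.11. ATP5F1D, of the central stalk, went from 219 to 477 CPM in SMMCs (1.11 ± 0.10), and ATP5PF, of the peripheral stalk, from 149.7 to 404 CPM in monocytes/macrophages (1.31 ± 0.14). ATP5IF1, the inhibitor that keeps the enzyme from running in reverse, rose by 0.85 in FAPs, 0.68 in SCs, 0.38 in VECs, 0.39 in SMMCs and 0.92 in monocytes/macrophages.

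The proton ring of complex V is made of a single small protein with 3 genes, ATP5MC1, ATP5MC2 and ATP5MC3, which differ in the import peptide. ATP5MC3 went from 419.9 CPM (308 to 471) to 1071 CPM (1002 to 1181) in FAPs (1.54 ± 0.07), and rose by 1.00 in SCs, 1.12 in VECs, 0.68 in SMMCs and 1.05 in monocytes/macrophages. ATP5MC1 went from 101 to 288 CPM in VECs (1.46 ± 0.11), and rose by 1.39 in FAPs, 0.98 in SCs, 0.69 in SMMCs and 1.14 in monocytes/macrophages. ATP5MC2 instead fell in SCs, from 507 CPM (357 to 661) to 307 CPM (281 to 321), a log2 fold change of -0.78 ± 0.09 with lower values in 9 of 9 donors. ATP5MC2 also fell in monocytes/macrophages (-0.45 ± 0.13) and rose in FAPs (0.26 ± 0.08, higher in 7 of 9 donors). ATP5ME, a small subunit of the membrane part, fell in SCs (-0.30), VECs (-0.30) and SMMCs (-0.51).

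Complex IV differed by isoform and by type. COX5A went from 118 CPM (76.7 to 134) to 418 CPM (391 to 430.2) in FAPs (1.98 ± 0.08). It rose by 1.12 in SCs, 1.04 in VECs, 1.16 ± 0.15 in SMMCs and 0.93 in monocytes/macrophages. COX5B rose in FAPs (0.27), SCs (0.19) and VECs (0.28) and fell in SMMCs (-0.26), and its value in FAPs was -0.0025 after thinning to the smallest sum. COX4I1, the common form of the largest nuclear subunit, rose in FAPs (0.29), SCs (0.20) and VECs (0.48). COX6B1 rose by 0.82 in FAPs, 0.59 in SCs, 0.64 in VECs, 0.46 in SMMCs and 0.58 in monocytes/macrophages. COX6A1 rose in FAPs (0.49), SCs (0.32), VECs (0.52) and monocytes/macrophages (0.60) and fell in SMMCs (-0.29 ± 0.10). NDUFA4 went from 524 CPM (330.1 to 556) to 1076 CPM (965 to 1213) in SCs (1.12 ± 0.08), and rose by 0.73 in FAPs, 0.53 in VECs and 0.71 in monocytes/macrophages.

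COX7A1 and COX7A2, the muscle and the common form of the same subunit, moved in opposite directions. COX7A1 went from 183 CPM (132 to 232) to 18.1 CPM (13.8 to 32.9) in FAPs, a log2 fold change of -3.04 ± 0.15 (edgeR adjusted p = 1.45e-14). In SCs COX7A1 went from 154 CPM (87.7 to 232) to 27.4 CPM (19.5 to 39.1), -2.64 ± 0.15. COX7A2 went from 347 CPM (296 to 457) to 788 CPM (752 to 819.8) in FAPs, 1.25 ± 0.07, and rose by 0.97 ± 0.08 in SCs. The donors of muscle and P0 did not overlap for COX7A1 in FAPs or SCs, nor for COX7A2 in FAPs. In VECs and SMMCs COX7A1 fell by 1.12 ± 0.18 and 1.62 ± 0.17 on the log2 scale while COX7A2 rose by 1.41 and 0.75. In monocytes/macrophages COX7A1 was not tested and COX7A2 rose by 1.39 ± 0.14. COX7A2L, a related protein known from respiratory supercomplexes, rose in FAPs (0.68) and SMMCs (1.01) and fell in VECs (-0.21 ± 0.09), where its value was 0.0029 with no filter on low counts.

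The other muscle forms were low outside myocytes and lower still at P0. COX6A2 was at 3.70 to 16.0 CPM in the FAPs of muscle (median 9.34) and had 0 UMIs in the FAPs of P0. Pooled over donors COX6A2 was at least 453-fold lower in FAPs, from 77 UMIs in muscle and with P0 counted at a floor of 3 UMIs over the group, and at least 108-fold lower in SCs, from 21 UMIs. COX8B went from a median of 31.2 CPM (0 to 68.2) to 0.831 CPM (0.407 to 1.43) in SCs and was too low to be tested there. COX8A, its common form, rose in FAPs (0.53 ± 0.06) and fell in SCs (-0.37 ± 0.10) and SMMCs (-0.92 ± 0.11). COX6B2 went from 0 CPM in the median donor of muscle (0 to 1.89) to 8.97 CPM (5.63 to 18.2) in FAPs, a log2 fold change of 3.98 ± 0.55.

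**Figure D3:**
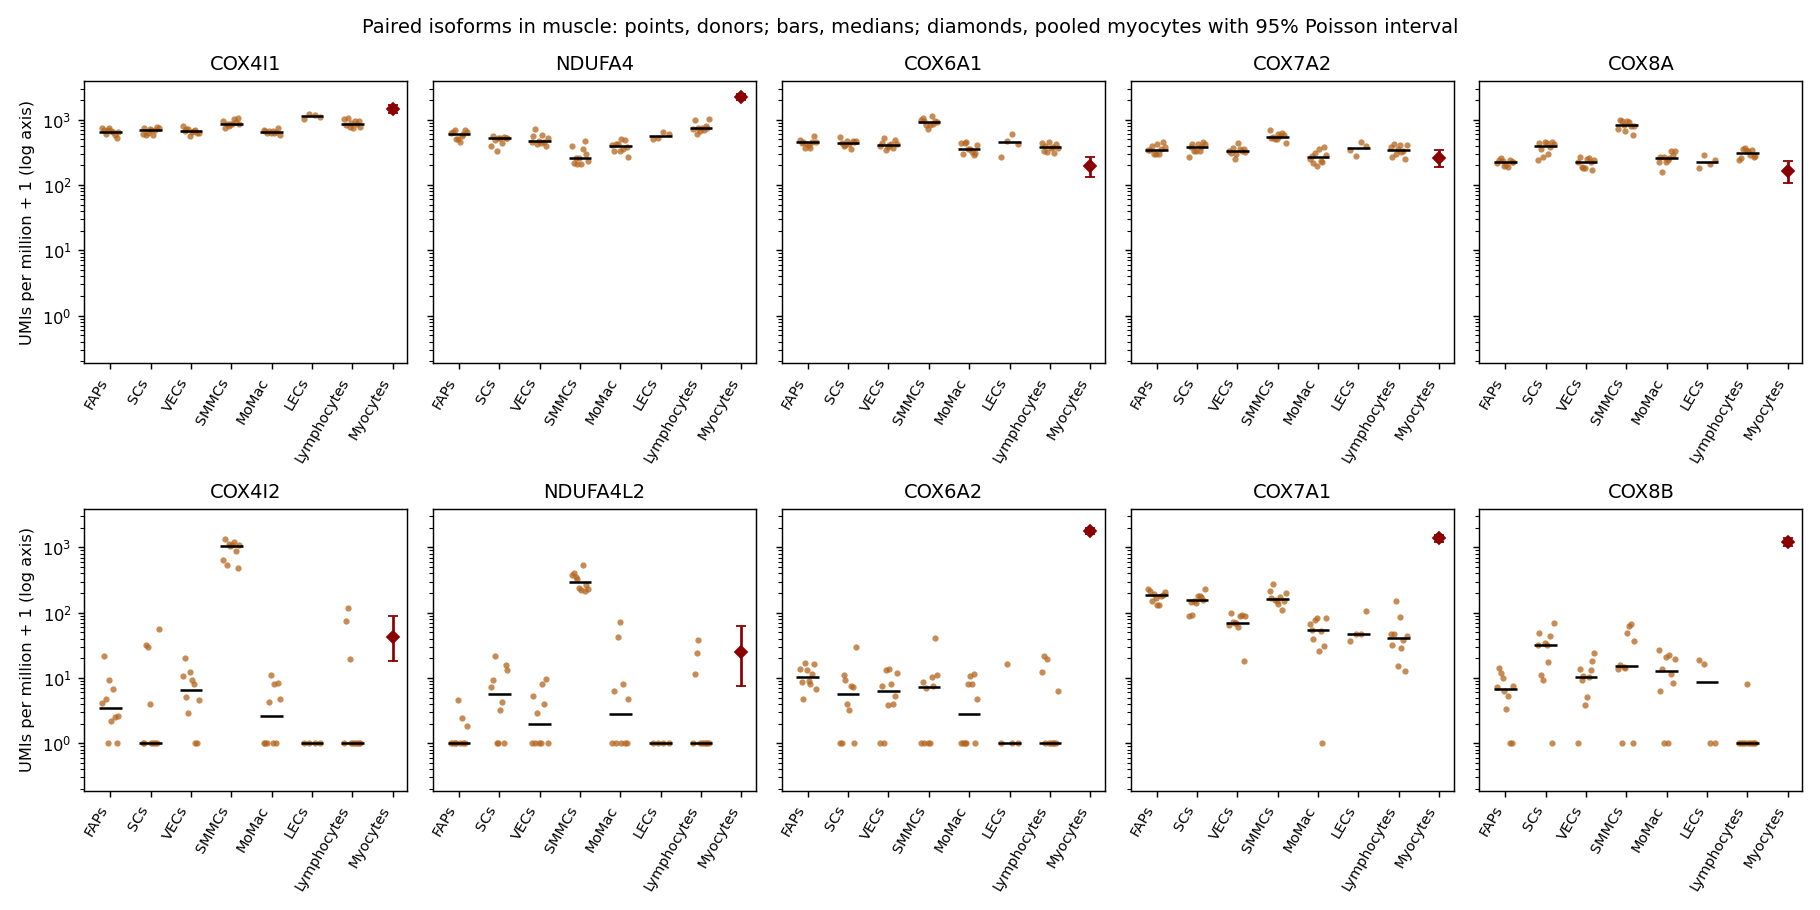
CPM plus 1 (y axis, log scale) of paired isoforms in muscle by cell type (x axis; MoMac, monocytes/macrophages; LECs, lymphatic endothelial cells), with points for donors, bars for their medians and a diamond with its 95% Poisson interval for pooled myocytes. COX6A2, COX7A1 and COX8B reach 1780, 1371 and 1227 CPM in myocytes, and COX4I2 and NDUFA4L2 are higher in every SMMC donor than in any donor of FAPs, SCs, VECs or monocytes/macrophages.

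Cells labelled myocytes were rare, with 45 cells of 10 donors, at most 8 from 1 donor, and 166249 UMIs in all. Their values are therefore pooled, have no replicate error and were not tested, and the exact Poisson intervals (95%) cover counting error only. The 84 genes took 5.62% of these UMIs. COX6A2 was at 1780 CPM (1583 to 1995) in myocytes, COX7A1 at 1371 CPM (1199 to 1562) and COX8B at 1227 CPM (1065 to 1408). The muscle FAPs had donor medians of 9.34 CPM for COX6A2, 183 CPM for COX7A1 and 5.83 CPM for COX8B. Of the common forms, COX6A1 was at 192 CPM (132 to 272) in myocytes, below the FAP median of 447 CPM. COX7A2 was at 259 CPM (187 to 348) and COX8A at 162 CPM (107 to 236), with the FAP medians of 347 CPM and 226 CPM inside these intervals. NDUFA4 was at 2250 CPM in myocytes against a FAP median of 614 CPM, and COX4I1 at 1468 CPM against 657 CPM.

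Fibre transcripts were present at a low level in the other cell types of muscle, and their values belong beside those of the muscle isoforms. ACTA1, the actin of the fibre, was at 29648 CPM in myocytes and at 382 to 588 CPM in muscle FAPs (median 465) and 121 to 512 CPM in muscle SCs (median 205). At P0 the median of ACTA1 was 0.0906 CPM in FAPs and 0 in SCs. For each 100 UMIs of ACTA1, COX6A2 had 6.01 UMIs in myocytes, 2.16 in FAPs, 2.83 in SCs, 3.93 in VECs, 3.68 in monocytes/macrophages and 6.98 in SMMCs. COX7A1 had 4.63 in myocytes, 38.2 in FAPs, 62.8 in SCs, 38.7 in VECs, 48.8 in monocytes/macrophages and 156 in SMMCs. COX8B had 4.14 in myocytes, 1.18 in FAPs, 13.1 in SCs, 5.70 in VECs, 11.3 in monocytes/macrophages and 25.1 in SMMCs. COX7A1 was thus above the ratio of myocytes in each of these 5 types, COX8B in each but FAPs, and COX6A2 in SMMCs alone, where it rested on 15 UMIs. The excess of COX7A1 was not particular to these types. It had 40 in lymphatic endothelial cells, 24.7 in lymphocytes and 23.8 in neutrophils, from 34, 39 and 15 UMIs. In the same order COX8B had 5.88, 0.633 and 0, and COX6A2 had 4.71, 3.17 and 0. Of the 11 fibre markers tested in FAPs 10 fell from muscle to P0 and 1, TPM2, rose. The part of fibre RNA in the fall of COX6A2, COX7A1 and COX8B was not tested.

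SMMCs had the highest median of the 5 types compared (FAPs, SCs, VECs, SMMCs and monocytes/macrophages) for 61 of 80 genes in muscle, 76.3%, against 20.7% of all genes compared. At P0 this held for 54 of 80 genes, 67.5%, against 19.5% of all. In muscle 9 genes were higher in the SMMCs of every donor than in any donor's cells of the other 4 types, where 2.05% of all genes were. These were NDUFB3, NDUFS7, ATP5F1B, ATP5MD, COX5B, COX6A1, COX8A, COX4I2 and NDUFA4L2. COX7A2L was lower in every SMMC donor, as were 0.0204% of all genes, at 74.0 to 117 CPM against 143 to 180.2 CPM in FAPs and 133 to 224 CPM in SCs. COX5B was at 653 to 966 CPM in SMMCs and 387 to 498 CPM in FAPs, and COX8A at 580.1 to 988 CPM against 188 to 263 CPM. At P0 NDUFS7, COX5B and COX4I2 lay above every donor of the other types, as 1.45% of all genes did, and none lay below, as 0.0472% did. The labels come from the same expression values, so these differences between types are not independent of the labelling.

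COX4I2 and NDUFA4L2 had the largest falls of the 79 genes tested in SMMCs. COX4I2 was at 489 to 1358 CPM in the SMMCs of muscle (median 1061) and at 13.2 to 72.7 CPM at P0 (median 26.9), a log2 fold change of -5.00 ± 0.31 (edgeR adjusted p = 8.65e-11). NDUFA4L2, a paralogue of NDUFA4 known from the response to hypoxia, was at 215 to 536 CPM in muscle (median 295) and 0 to 37.7 CPM at P0 (median 11.1), -4.49 ± 0.42. The donors of muscle and P0 did not overlap for either gene. NDUFA4 rose in the same cells, from 208 to 463 CPM (median 255) to 454 to 857 CPM (median 579.7), 1.10 ± 0.15. Markers of SMMCs were lower at P0 too: the median of RGS5 went from 1459 to 5.91 CPM, of MYH11 from 898 to 31.6 CPM and of ACTA2 from 7560 to 3048 CPM. Their part in the result was not tested. Lower marker medians were not particular to SMMCs. DCN went from 19418 to 2851 CPM in FAPs, MYF5 from 666 to 61.5 CPM in SCs and VWF from 404 to 66.4 CPM in VECs. In VECs PECAM1 (900 to 983 CPM) and CDH5 (598 to 780 CPM) were higher at P0.

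SCs and FAPs of muscle differed in 16 of the 77 genes tested. In SCs 12 were higher, as were 25.0% of all genes, and 4 were lower, as were 25.6%, with a median log2 difference of 0.07 against 0.03 for all genes. With library size scaling alone 24 were higher and 2 lower, with a median of 0.14 against 0.11 for all genes. ATP5MC2 was at 357 to 661 CPM in SCs and 212 to 319.6 CPM in FAPs (0.83 ± 0.12, edgeR adjusted p = 9.70e-07), with no overlap between donors. COX8A (0.70 ± 0.11), ATP5F1A (0.63 ± 0.10), NDUFA6 (0.57 ± 0.13) and NDUFB2 (0.51 ± 0.18) followed. The lower genes were NDUFB11 (-0.55 ± 0.10), NDUFS4 (-0.35 ± 0.12), NDUFA4 (-0.35 ± 0.10) and UQCRQ (-0.26 ± 0.11).

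At P0 13 of 80 genes were higher in SCs than in FAPs (24.7% of all genes) and 22 were lower (23.6%), with a median of -0.05 against 0.01 for all genes. COX7A1 (0.40 ± 0.15), ATP5F1E (0.39 ± 0.06), NDUFA1 (0.34 ± 0.05), NDUFA4 (0.27 ± 0.08) and NDUFV1 (0.27 ± 0.06) were higher in SCs. COX7B2, a relative of COX7B known from testis (-1.31 ± 0.53), ATP5F1C (-0.39 ± 0.05), NDUFC1 (-0.37 ± 0.06), ATP5MC1 (-0.29 ± 0.05) and NDUFS4 (-0.27 ± 0.05) were lower. The difference between SCs and FAPs in their change from muscle to P0 was itself tested and was called for 25 of 78 genes, against 39.8% of all genes: 6 changed more upward in SCs (20.3% of all genes) and 19 more downward (19.5%). With library size scaling alone these counts were 4 and 29, and those of all genes went from 1776 and 1707 to 1593 and 1981. On the downward side were COX8B (-2.02 ± 0.59), ATP5MC2 (-0.83 ± 0.13), NDUFA6 (-0.71 ± 0.13), COX8A (-0.68 ± 0.12) and ATP5F1A (-0.66 ± 0.12). COX8B had too few UMIs for a test of this change within SCs or FAPs alone. The part of fibre RNA in its value was not tested. On the upward side were NDUFB11 (0.81 ± 0.11), COX7A1 (0.61 ± 0.22), NDUFA4 (0.61 ± 0.13) and NDUFA1 (0.39 ± 0.10).

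In the FAPs of the FAP cultures the share of the 84 genes was lower after P0. It was 2.50% to 2.52% at P0, 1.86% to 2.09% at P2, 1.69% to 1.79% at P5 and 1.87% to 2.09% at P8 in donors 4, 7 and 8. The sort and the change of coating also fell between P0 and P2. In the FAPs of unsorted cultures, which stayed on fibronectin, the share went from 2.50% to 2.60% at P0 to 1.88% to 2.06% at P2. In the FAPs found in SC cultures it went from 2.46% to 2.60% to 2.42% to 2.47%, the latter from 2 donors with 12 and 19 cells. From P0 to P2 36 of 80 genes fell (25.4% of all genes) and 8 rose (28.4%), with a median log2 fold change of -0.26 against 0.03 for all genes. With library size scaling alone 52 fell and 5 rose, with a median of -0.38 against -0.09 for all genes. NDUFC1 (-1.22 ± 0.11), UQCRQ (-1.15 ± 0.13), ATP5MD (-0.92 ± 0.12), ATP5MC3 (-0.91 ± 0.11) and NDUFB1 (-0.83 ± 0.11) fell, as did 11 of the 18 genes of complex V. The count of 44 called genes was 7 without donor 7 and 29 without donor 8. COX7A1 rose, to 46.0, 67.8 and 86.3 CPM in donors 4, 7 and 8 at P2 (2.17 ± 0.25, edgeR adjusted p = 9.15e-04), and COX6B2 (1.14 ± 0.24), NDUFB11 (0.63 ± 0.10), NDUFA13 (0.58 ± 0.09) and SDHB (0.40 ± 0.09) rose as well. Of the 4 fibre markers tested in the same comparison 4 rose, with ACTA1 at a median of 2.32 CPM in the FAPs of P2, and their part in the rise of COX7A1 was not tested. From P2 to P8 edgeR called 0 of 80 genes (0.0271% of all genes rose and 0.00902% fell). At an unadjusted p under 0.05 there were 2 of these genes, against 785 of 11082 over the whole table. DESeq2 called 0. With the donor as a block edgeR called 6, of which 3 were higher (4.57% of all genes in that fit) and 3 lower (4.13%).

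**Figure D4:**
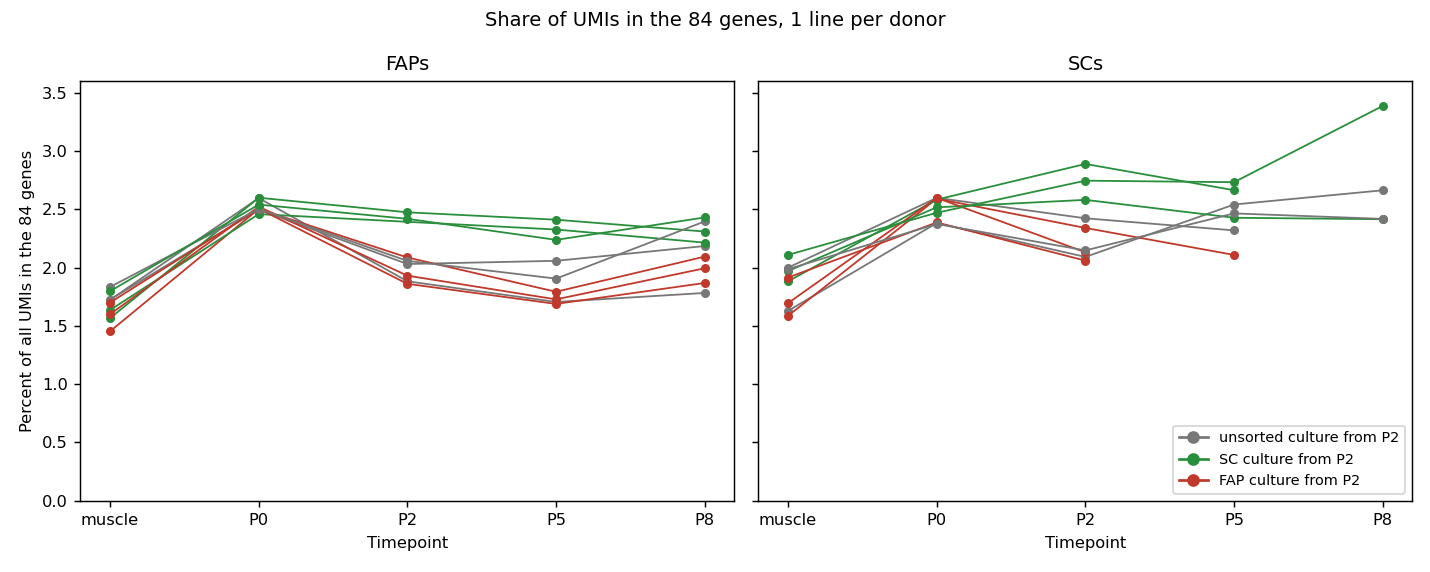
Percent of all UMIs in the 84 genes (y axis) in FAPs (left) and SCs (right) from muscle to passage 8 (x axis), with 1 line per donor coloured by the culture grown from passage 2 on and points for sets of at least 10 cells. In FAPs at passage 5 the SC cultures lie at 2.24% to 2.41% and the FAP cultures at 1.69% to 1.79%.

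In the SCs of unsorted cultures the share went from 2.37% to 2.60% at P0 to 2.09% to 2.42% at P2. In the SCs of the SC cultures the share was 2.47% to 2.58% at P0, 2.58% to 2.89% at P2 and 2.43% to 2.73% at P5. At P8 it was 2.41% in donor 6 (25 cells) and 3.39% in donor 10 (36 cells), and P8 was not tested. From P0 to P2 10 of 80 genes rose (11.1% of all genes) and 4 fell (9.06%), and the count of 14 was 0 without donor 5, 2 without donor 6 and 3 without donor 10. COX8B was at 1.01, 0.831 and 0.562 CPM at P0 and 7.96, 9.34 and 1.64 CPM at P2 in donors 5, 6 and 10 (3.01 ± 0.78, edgeR adjusted p = 0.034). UQCRB (0.76 ± 0.18), NDUFB5 (0.54 ± 0.08), NDUFS4 (0.51 ± 0.09) and NDUFA8 (0.46 ± 0.10) rose, and UQCRQ (-0.50 ± 0.10), ATP5ME (-0.37 ± 0.08), ATP5F1E (-0.35 ± 0.09) and NDUFB1 (-0.34 ± 0.09) fell. Of the 8 fibre markers tested 6 rose in the same comparison, among them ACTA1 (8.84 ± 1.01) and MYLPF (9.64 ± 1.08), and their part in the rise of COX8B was not tested. From P2 to P5 edgeR called 0 of 80 genes (2.56% of all genes rose and 4.77% fell), and DESeq2 called 3. At an unadjusted p under 0.05 in edgeR there were 11 genes, against 3203 of 12195 over the whole table. Of the 13 mitochondrially encoded genes 11 rose.

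At P2 the SCs of SC cultures were compared with the FAPs of FAP cultures. Of 81 genes 28 were higher in SCs (15.0% of all genes) and 3 were lower (20.4%), with a median of 0.29 against 0.01 for all genes, and 11 of the 18 genes of complex V were among the higher ones. ATP5F1A was at 718, 635 and 691 CPM in the SCs of donors 5, 6 and 10 and at 409.8, 369 and 361 CPM in the FAPs of donors 4, 7 and 8 (0.67 ± 0.10). COX8B (3.29 ± 0.69), ATP5MC3 (0.84 ± 0.16), UQCRB (0.79 ± 0.22) and COX8A (0.66 ± 0.10) were higher too, and COX7B2 (-3.76 ± 0.77), COX6B2 (-1.70 ± 0.29) and COX7A1 (-1.53 ± 0.32) were lower. Within the unsorted cultures of donors 1, 2 and 9, where both types shared a dish, 8 genes were called in place of 31, of which 5 were higher (12.2% of all genes in that fit) and 3 lower (13.7%) in SCs, and UQCRB was at -0.012 there with the donor as a block. ATP5F1A was at 449.6, 493 and 420.0 CPM in those SCs and 404, 370.2 and 405 CPM in those FAPs. Those SCs rested on 122 to 223 cells and 2787860 to 4185600 UMIs per donor. In SC cultures it was 1085 to 1125 cells and 23552900 to 31783800 UMIs. The part of this depth in the lower count was not tested. The SCs of unsorted cultures were also lower in the SC marker ITGA7 and higher in the FAP marker LUM than those of SC cultures, with no overlap. ITGA7 was at 70.7, 153 and 79.9 CPM against 281, 239.6 and 184 CPM and LUM at 1672, 958 and 1355 CPM against 405, 619.5 and 512 CPM, and their part in the lower count was not tested. Without donor 7 the count in the sorted cultures was 10, without donor 5 it was 14 and without donor 8 it was 18.

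FAPs were also compared between cultures, a comparison chosen after the data were seen. Sorting followed P0 by the study's methods, while the label of the P0 library names SCs and FAPs beside unsorted cells, and P0 was treated here as unsorted. At P0 the share in FAPs was 2.50% to 2.52% in the donors of the later FAP cultures, 2.46% to 2.60% in those of the later SC cultures and 2.50% to 2.60% in those of the later unsorted cultures. At P5 it was 2.24% to 2.41% in the FAPs found in SC cultures, with 31 to 593 cells per donor, and 1.69% to 1.79% in the FAPs of FAP cultures. Between these sets 34 of 81 genes were higher in the FAPs of SC cultures (20.8% of all genes) and 6 were lower (19.8%), with a median of 0.20 against -0.03 for all genes. ATP5MC1 was at 487, 531 and 435 CPM in donors 5, 6 and 10 and at 193, 199 and 198 CPM in donors 4, 7 and 8 (1.10 ± 0.09, edgeR adjusted p = 6.94e-05). ATP5F1B was at 635, 652 and 616 CPM against 327, 309 and 291 CPM (0.83 ± 0.08), and no donor overlapped for either gene. The FAPs of unsorted cultures lay between these sets for ATP5MC1, at 302, 216 and 239 CPM in donors 1, 2 and 9.

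ATP5MC3 (0.86 ± 0.08), NDUFS8 (0.78 ± 0.11) and ATP5MD (0.76 ± 0.08) were also higher in the FAPs of SC cultures at P5. Of the 37 genes of complex I 19 were higher (20.8% of all genes) and 4 were lower (19.8%). COX7A1 (-1.57 ± 0.15), COX6B2 (-1.33 ± 0.37), NDUFA3 (-0.68 ± 0.16), NDUFA7 (-0.32 ± 0.10) and NDUFS5 (-0.30 ± 0.10) were lower. FAP markers differed between the same cells. DCN was at 2101, 2846 and 2335 CPM in the FAPs of SC cultures and 11519, 13082 and 14564 CPM in those of FAP cultures, LUM at 1110, 1261 and 1438 CPM against 4572, 4653 and 4874 CPM, and PDGFRA at 64.6, 104 and 50.0 CPM against 444, 547 and 638 CPM. Of the SC markers, ITGA7 was at 5.43, 46.3 and 16.5 CPM against 5.02, 5.61 and 5.06 CPM, with an overlap at donor 5. MYF5 was at 1.23, 16.9 and 5.51 CPM against 5.38, 6.81 and 4.28 CPM and overlapped. DES overlapped too, at 6.85, 13.5 and 6.88 CPM against 6.93, 6.77 and 5.58 CPM. PAX7 was at 0 CPM in these donors of SC cultures. Of all UMIs the mitochondrially encoded genes took 3.91% to 4.33% in the FAPs of SC cultures and 3.35% to 3.80% in those of FAP cultures, and the ribosomal protein genes 19.7% to 21.4% against 23.0% to 24.1%, without overlap. The part of these differences in the result was not tested.

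SCs were compared between cultures at P2, again after the data were seen. The share was 2.58% to 2.89% in SC cultures, with 1085 to 1125 cells per donor. It was 2.09% to 2.42% in unsorted cultures, with 122 to 223 cells. Of 80 genes 7 were higher in the SC cultures (6.58% of all genes) and 1 was lower (7.77%). At an unadjusted p under 0.05 in edgeR there were 29, against 3754 of 11378 genes over the whole table. ATP5MC1 was at 424, 369 and 461 CPM in SC cultures and 236, 272 and 219 CPM in unsorted cultures (0.68 ± 0.13), with no overlap. ATP5MC3 (0.71 ± 0.19), ATP5PB (0.56 ± 0.14), ATP5F1A (0.47 ± 0.10) and COX7B (0.46 ± 0.12) were higher too, and the lower gene was COX7A1 (-1.30 ± 0.22). The count of 8 was 0 without donor 1 or donor 9, 1 without donor 5, 2 without donor 10, 14 without donor 6 and 16 without donor 2. Markers of both types moved with this result. Besides LUM and ITGA7, given above, the SC marker MYF5 was without overlap, at 154, 146 and 157 CPM in the SCs of SC cultures and 93.9, 127 and 101 CPM in those of unsorted cultures. DCN was at 748, 2092 and 1210 CPM against 4468, 1670 and 3569 CPM and overlapped, as did PDGFRA, PAX7 and DES. The part of these markers in the result was not tested.

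Between calves and adults no gene of the list passed the test. In the FAPs of muscle (5 calves against 5 adults) edgeR called 0 of 77 genes (1.51% of all genes were called higher and 1.64% lower). At an unadjusted p under 0.05 there were 6 of the 77, against 1063 of 6158 genes over the whole table. In the FAPs of P0 edgeR called 0 of 81 (0.0% and 0.0% of all genes), and in the SCs of P0 0 of 79 (0.0% and 0.0%). At an unadjusted p under 0.05 there were 1 of the 81 (575 of 11466 over the whole table) and 14 of the 79 (1018 of 9908). The median log2 fold change of calves against adults was 0.10 for these 79 genes in the SCs of P0 against -0.00080 for all genes, and 71 of the 79 had a positive value, none of which passed the adjusted test. DESeq2 called 0 in each of these comparisons. In simulated data for the FAPs of muscle 4.4% of changes of 0.5 on the log2 scale were recovered and 68.9% of changes of 1, so most differences of the smaller size would have been missed.

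Other genes of the mitochondrion were counted in the same fits of P0 against muscle. Of the mitochondrial ribosomal protein genes, which translate the mitochondrially encoded subunits, 73 of 75 rose and 1 fell in FAPs, with a median log2 fold change of 1.16, against 40.6% and 39.0% of all genes. In SCs 52 of 74 rose and 4 fell (36.5% and 37.9% of all genes), in VECs 56 and 2 of 73 (35.6% and 37.8%), in SMMCs 49 and 1 of 57 (35.5% and 35.9%) and in monocytes/macrophages 29 and 1 of 39 (31.9% and 33.7%). The same shares of all genes stand against the counts of the other lists. In FAPs 68 of 75 fell from P0 to P2 (25.4% of all genes) and none rose (28.4%). Of the enzymes of the citric acid cycle 16 of 18 rose in FAPs and 1 fell, among them CS, the citrate synthase (1.36 ± 0.09), and MDH2, the mitochondrial malate dehydrogenase (1.70 ± 0.07). Of the electron and inner membrane carriers 11 of 12 rose in FAPs and 0 fell, among them cytochrome c, CYCS (2.62 ± 0.16), and the ADP/ATP carrier SLC25A5 (2.96 ± 0.22), while SLC25A4, the carrier of heart and muscle, had a value of 0.01 ± 0.09. In SCs 11 of 17 enzymes of the cycle and 9 of 12 carriers rose, and 1 fell in each list. Of the enzymes of the cycle 8 rose and 2 fell of 17 in VECs, 5 and 2 of 14 in SMMCs and 3 and 0 of 8 in monocytes/macrophages, so that in the last 2 types the share that rose was near that of all genes. Of the carriers 9 rose and 0 fell of 11 in VECs, 8 and 1 of 9 in SMMCs and 5 and 1 of 9 in monocytes/macrophages. Of the 40 assembly factors tested in FAPs 26 rose and 5 fell. In the other types the assembly factors moved both ways, with 7 higher and 6 lower of 22 in SCs (median -0.09), 9 and 6 of 22 in VECs, 5 and 3 of 11 in SMMCs and 2 and 2 of 9 in monocytes/macrophages. Of the 10 regulators of mitochondrial biogenesis tested in FAPs 6 rose, among them ESRRA (0.58 ± 0.16), and 3 fell, among them TFAM (-0.28 ± 0.12). Fewer regulators had enough UMIs in the other types: 1 rose and 2 fell of 3 in SCs (median -0.77), 2 rose and 3 fell of 5 in VECs (median -0.68), and the 1 tested fell in SMMCs and in monocytes/macrophages.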

How the data were processed

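Single-cell RNA-seq libraries (10x Genomics 3′ chemistry) were analysed from the raw UMI counts per gene and cell barcode that the authors deposited. The submitters' processing notes name Cell Ranger 6.0.1 and the genome build ARS-UCD1.2. The authors assigned each barcode to 1 of 10 donors by genotype, kept singlets, and gave each kept cell a cell type label. Doublets within 1 donor were not removed by that step, and no doublet caller was run here. A combined expression table and 67 columns of per-cell values were not used. The sample labels name a run 1 and a run 2 for P0, P2 and P5. The counts used were filed under run 1 and held all 36129 kept cells. The labels do not say whether these counts include the reads of run 2.

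Raw UMIs were summed over the cells of each timepoint, label and donor with at least 10 cells, which gave 159 sums. The replicate was the donor. P-values came from edgeR 4.0.16 (quasi-likelihood F test, robust, TMM scaling, filterByExpr) in R 4.3.3, with Benjamini-Hochberg adjustment over all genes tested, and SE was the absolute log2 fold change divided by the square root of F. DESeq2 1.42.0 was an alternative, as were library size scaling alone, no filter on low counts, at least 30 cells, the donor as a block, sex as a covariate, thinning and leaving out each donor. The comparison within unsorted cultures and those between cultures were chosen after the data were seen. Membership of the list followed gene names, but the gene family and the lists set beside it were chosen with earlier results of these data known.

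Genes named are the paired isoforms of complexes IV and V, a set of core subunits, and in each comparison up to 5 called genes with the largest change in each direction. The remaining genes and markers are named as context. The values of 1 gene that this rule names are not reported here, and it is left out of the plot of fold changes. Sums with the same donor number came from the same animal. Correlations of their deviations from the group means had a median of 0.01 to 0.08 between muscle and P0 of 1 type, of 0.16 for SCs against FAPs in muscle, of 0.33 for them at P0 and of 0.23 to 0.71 between passages from P0 on. The fit was tested on simulated counts for 200 changed genes. For P0 against muscle in FAPs (9208 genes) 47.9% of changes of 0.5 and 92.7% of changes of 1 on the log2 scale were recovered. For P2 against P0 in FAPs (11577 genes) the values were 8.0% and 63.3%. In the data 7332 and 6233 genes were called in these fits, far more than were changed in the simulation. The adjustment over all genes is then milder, so these recoveries do not measure what the real tests could detect. The counts used for each timepoint came from 1 library, so timepoint, depth and library cannot be told apart. Intervals and floors cover counting error only.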

Additional observations from a re-analysis of the deposited data

Results flagged for a closer look

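The change from muscle to P0 was tested for a difference between SCs and FAPs. In edgeR 25 of 78 genes of the list were called at an adjusted p under 0.05, against 3483 of 8751 genes (39.8%) over the whole table, so the list was not called more often than all genes. Of the 25 genes 6 changed more upward in SCs (20.3% of all genes) and 19 more downward (19.5%). In 32 groups of donors checked for a donor standing apart in the share of the 84 genes or in the level of a selected isoform, 0 had one.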

How the results depend on the processing

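The counts of called genes for P0 against muscle were within 1.5 times under each alternative run, except in monocytes/macrophages after thinning to the smallest sum of UMIs, with 32 in place of 50. Their medians moved by over 1.5 times in FAPs (0.51 after thinning) and, with no filter, in SCs (0.69) and SMMCs (0.51). Of 3749 fold changes of named genes under alternatives, 3498 kept their side of the threshold, 178 lost the call, 67 gained it and 6 reversed. A change of sign was counted as reversed only where the gene was called in the main fit or under the alternative. Genes called in neither fit stand among the 3498 whatever their sign. With library size scaling alone the count was 26 for SCs against FAPs in muscle, 67 for SCs against FAPs of sorted cultures at P2, 26 for SCs between cultures at P2 and 62 for FAPs between cultures at P5. That scaling moved the median of all genes to 0.18, 0.11 and 0.16 in the last 3, and the split of all genes called higher and lower from 1811 and 2473 to 2904 and 1916, from 749 and 884 to 1256 and 685, and from 2390 and 2286 to 3301 and 1556. For calves against adults in muscle FAPs that split went from 93 and 101 to 53 and 186, for SCs against FAPs in muscle from 1111 and 1139 to 1326 and 1027, for FAPs from P0 to P2 from 3290 and 2943 to 2754 and 3553 and for FAPs from muscle to P0 from 3742 and 3590 to 3429 and 3860. DESeq2 called 51 for SCs against FAPs at P2, 20 for SCs between cultures at P2 and 3 for SCs from P2 to P5. Within unsorted cultures SCs against FAPs at P2 gave 8 (median 0.04 in place of 0.29), and 10 with the donor as a replicate block. The replicate block gave 6 in place of 0 for FAPs from P2 to P8 and moved no other count by over 1.5 times. Leaving out 1 donor gave 10 to 32 for SCs against FAPs at P2, 7 to 38 for FAPs from P0 to P2, 0 to 3 for SCs from P0 to P2, 0 to 16 for SCs between cultures at P2 and 31 to 37 for FAPs between cultures at P5. The reversed values were SDHB (-0.22) and COX5B (-0.0025) in FAPs from muscle to P0 after thinning, COX7A2L in VECs with no filter on low counts (0.0029), and, for SCs against FAPs at P2 within unsorted cultures, ATP5MC1 (-0.16, and -0.16 with the block) and UQCRB (-0.012 with the block). The cause was not tested. With 3 donors in each group, small changes were mostly not detectable.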
